A study of Mus musculus with 6 samples.

Results

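Cholesterol synthesis was examined in Zic2 iso/iso mouse embryos through 7 of its enzyme genes, Hmgcs1, Idi1, Fdft1, Sqle, Lss, Cyp51 and Dhcr7. Members were taken by gene symbol, as the probes that the array's annotation gives to these names, with no threshold on a measured value. The 7 names themselves were proposed with earlier results of these data known. Of the 7 genes, 5 had a probe (Idi1, Sqle, Lss, Cyp51 and Dhcr7), with 9 probes in all, among 19057 named genes and 45281 probes. Hmgcs1 and Fdft1 matched no probe and were not analysed here. In all 5 measured genes the pools of Zic2 iso/iso and wildtype embryos overlapped, and none passed the test of a difference. Over all probes only 0.0442% passed that test and 10.6% did not overlap, so these counts do not set the genes apart. Their differences lay between −0.09 and 0.03 on the log2 scale, while Shh, the gene of the ligand that is modified with cholesterol, fell by 0.86 in the same pools.

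Whole embryos were collected at E8.0 to E8.5 from crosses between Zic2 iso/+ parents on the C3H/HeH background, and 8 stage-matched embryos were pooled for each Illumina Mouse WG6 v2 array. There were 3 pools of Zic2 iso/iso embryos and 3 pools of wildtype (Zic2 +/+) littermates, with both sexes in use and no treatment. The iso allele, found in a chemical mutagenesis screen, carries a premature stop codon that disrupts the fifth zinc finger of this transcription factor. Every cell of a Zic2 iso/iso embryo carries it, and it was kept as 1 line. Since whole embryos were used, the values average over all tissues, and fewer cells of a type and less RNA per cell cannot be told apart. The stop codon removes no probe target, so Zic2 itself does not check the genotypes here. Its brighter probe (ILMN_2470518) was at 7.64, 7.57 and 8.01 in Zic2 iso/iso pools and 8.27, 8.06 and 8.00 in wildtype pools, a log2 difference of −0.37 (standard error 0.11, adjusted p = 0.61) with overlapping pools. The dimmer probe (ILMN_1252072) went the other way, at 7.56, 7.60 and 7.46 in Zic2 iso/iso pools and 7.28, 7.53 and 7.46 in wildtype pools, a difference of 0.12 (adjusted p = 0.92).

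Cholesterol is built from acetyl-CoA through mevalonate, isoprenoids and squalene. When a cell runs short of sterols, the transcription factor SREBP2 leaves the endoplasmic reticulum, is cut free and turns up most genes of the pathway together. Their transcripts thus act as a gauge of sterol demand. In the embryo, cholesterol is attached to the Sonic hedgehog ligand and also binds Smoothened, the membrane protein that passes the Hedgehog signal on. Loss of DHCR7 causes Smith-Lemli-Opitz syndrome, in which holoprosencephaly, a failure of the forebrain to divide, can occur. Mutations of ZIC2 and SHH are among the known causes of holoprosencephaly in humans. The comparison asks whether transcripts of sterol synthesis differ in embryos that lack normal Zic2.

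SREBP2 is known to act through sterol regulatory elements in promoters. The RefSeq windows (GRCm38.p6) of 300 bases, from 250 before to 50 after the annotated start, were searched on both strands for the CCAAT box (CCAAT), which binds the NF-Y partner of SREBP2, for a sterol regulatory element consensus (TCACNCCAC) and for the core of the element described in Cyp51 promoters (TCACCTCAG). These letters do not overlap each other in the windows printed. Of the 7 genes, 5 have a window in the table (Hmgcs1, Idi1, Lss, Cyp51 and Dhcr7), with 7 windows in all since Dhcr7 has several starts. A CCAAT box was present in 5 of the 7 windows, at least 1 for each of the 5 genes, and in 37.4% of all 32851 windows. The consensus was found in the Hmgcs1 window and in 1.24% of all windows, and the Cyp51 element in the Cyp51 window and in 0.381% of all. The windows of Lss, Idi1 and Dhcr7 held neither element. Printed here are Cyp51 (chr5:4104648-4104947, minus strand), which holds both kinds of letters, Lss (chr10:76531355-76531654, plus strand), whose measured difference was the smallest, and Idi1 (chr13:8885356-8885655, plus strand), whose difference was the largest. Each runs 5′ to 3′ in the direction of the gene, with matches in capitals.
Cyp51: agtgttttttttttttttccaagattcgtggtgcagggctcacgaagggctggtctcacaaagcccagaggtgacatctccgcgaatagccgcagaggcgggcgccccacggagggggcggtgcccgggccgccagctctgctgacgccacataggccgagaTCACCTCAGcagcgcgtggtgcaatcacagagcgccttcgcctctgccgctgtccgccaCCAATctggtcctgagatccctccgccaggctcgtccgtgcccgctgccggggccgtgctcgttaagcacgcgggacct
Lss: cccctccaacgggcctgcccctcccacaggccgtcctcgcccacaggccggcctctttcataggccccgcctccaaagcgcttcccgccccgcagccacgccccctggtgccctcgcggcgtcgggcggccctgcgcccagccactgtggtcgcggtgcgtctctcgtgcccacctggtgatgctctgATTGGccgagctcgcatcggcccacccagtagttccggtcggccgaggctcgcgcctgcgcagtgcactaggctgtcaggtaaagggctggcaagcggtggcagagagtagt
Idi1: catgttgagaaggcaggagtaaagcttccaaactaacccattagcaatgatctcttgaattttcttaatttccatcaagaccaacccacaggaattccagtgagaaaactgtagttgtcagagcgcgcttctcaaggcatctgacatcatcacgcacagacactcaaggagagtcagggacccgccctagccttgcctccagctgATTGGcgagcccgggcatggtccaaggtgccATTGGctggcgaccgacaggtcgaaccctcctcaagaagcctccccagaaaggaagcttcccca
In Cyp51 the sterol element begins 88 bases before the start and the CCAAT box, here in the forward sense, 29 bases before it. The other boxes read ATTGG, the same letters on the opposite strand, and begin 62 bases before the start in Lss and 45 and 14 before it in Idi1. A match is a description of the letters and not a measured binding site.

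The deposited values are linear probe intensities in which the background had not been subtracted. The lowest value on an array was 104 to 122, and the arrays resembled each other, with Pearson's r across probes between 0.993 and 0.996. Here the values were converted to log2 and quantile normalised, and each probe was compared between the genotypes with limma. A probe is called where its p, adjusted over all 45281 probes by the Benjamini-Hochberg method, is under 0.05. A difference is the mean of the Zic2 iso/iso pools minus that of the wildtype pools. The background level, 7.47 on the log2 scale, is the 95th percentile of the mean of 1606 probes for olfactory receptors and other families that early embryos are not known to express, and 40.7% of probes were above it. The unsubtracted background makes a measured difference smaller than that of the transcript, the more so the closer a probe lies to that level. Where a gene has several probes the brightest stands for it, and levels of different probes are not compared.

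Idi1 encodes the isomerase that makes the second of the paired isoprenoid building blocks, from which all later intermediates are assembled. Its probe (ILMN_2590923) was at 7.52, 7.49 and 7.61 in Zic2 iso/iso pools and 7.44, 7.69 and 7.77 in wildtype pools. The 3 mutant pools lay inside the wildtype range, and wildtype pool 1, which held the lowest value, was just under the background level. The means were 7.54 ± 0.06 in Zic2 iso/iso and 7.63 ± 0.17 in wildtype embryos (SD, n = 3 pools each). The log2 difference of −0.09 (standard error 0.08, adjusted p = 0.95) had a 95% interval of −0.28 to 0.09, and a two-sided exact permutation test gave p = 0.5. Among the 5 genes Idi1 had the widest spread, 0.33 between the highest and the lowest of the 6 pools.

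Sqle encodes squalene epoxidase, the enzyme of the first step that uses oxygen and a point at which flow through the pathway is limited. Its brightest probe (ILMN_2737163) was well above the background. In the deposited intensities it read 2433, 2126 and 1752 in Zic2 iso/iso pools and 1833, 2029 and 1907 in wildtype pools. After normalisation the log2 values were 10.92, 11.07 and 10.96 in Zic2 iso/iso pools and 10.95, 10.94 and 10.96 in wildtype pools. The wildtype pools were almost equal and the mutant pools lay on both sides of them. The difference of 0.03 (standard error 0.07, adjusted p = 0.98) had a 95% interval of −0.11 to 0.18, which in folds is 0.927 to 1.13, and the exact permutation p was 0.7. Sqle has a pair of dimmer probes. The probe ILMN_2600348 was at 8.44, 8.57 and 8.48 in Zic2 iso/iso pools and 8.74, 8.66 and 8.36 in wildtype pools, a difference of −0.09 (standard error 0.09, adjusted p = 0.96). ILMN_2573600 was below the background level in all pools, with a difference of −0.10 (adjusted p = 0.93). The probes of Sqle thus differed in sign, and none of the 3 separated the genotypes.

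Lss encodes lanosterol synthase, which folds the epoxide of squalene into the first sterol of the pathway. Its brightest probe (ILMN_2614161) was at 9.25, 9.29 and 9.13 in Zic2 iso/iso pools and 9.19, 9.24 and 9.25 in wildtype pools. The highest and the lowest value both came from mutant pools. The means were 9.22 ± 0.09 in Zic2 iso/iso and 9.23 ± 0.03 in wildtype embryos (SD, n = 3 each), a difference of −0.0017 (standard error 0.07, adjusted p = 1.0) with a 95% interval of −0.15 to 0.15. The probe ILMN_1228641 had a difference of −0.07 (adjusted p = 0.96), and ILMN_2444540, below the background level, one of −0.02 (adjusted p = 0.99), with overlapping pools in each.

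Cyp51 encodes the cytochrome P450 that removes a methyl group from lanosterol, and its promoter holds the sterol element shown above. The probe (ILMN_2688075) was at 8.93, 9.11 and 8.86 in Zic2 iso/iso pools and 9.01, 9.07 and 9.05 in wildtype pools. Mutant pool 2 was above all wildtype pools and the other mutant pools were below them. The means were 8.97 ± 0.13 in Zic2 iso/iso and 9.04 ± 0.03 in wildtype embryos (SD, n = 3 each). The difference of −0.07 (standard error 0.07, adjusted p = 0.96) had a 95% interval of −0.24 to 0.09, and the exact permutation p was 0.4. The brightest probes of Sqle, Lss and Cyp51 all had their highest value in mutant pool 2, whereas Idi1 had its lowest mutant value there.

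Dhcr7 encodes the reductase of the last step towards cholesterol. Its probe (ILMN_2660471) was at 7.95, 7.94 and 7.94 in Zic2 iso/iso pools and 7.90, 7.91 and 7.96 in wildtype pools. All 6 values fell within 0.06, the narrowest range of the 5 genes, and the highest and the lowest were both wildtype. With a mean of 7.93 the probe lay not far above the background level of 7.47, so unsubtracted background narrows this range. The difference of 0.02 (standard error 0.06, adjusted p = 0.99) had a 95% interval of −0.12 to 0.15, or 0.923 to 1.11 in folds, and the exact permutation p was 0.4. This test cannot pass 0.05 for any gene, since 0.1 is the smallest p that 3 pools of each genotype allow.

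**Figure D1:**
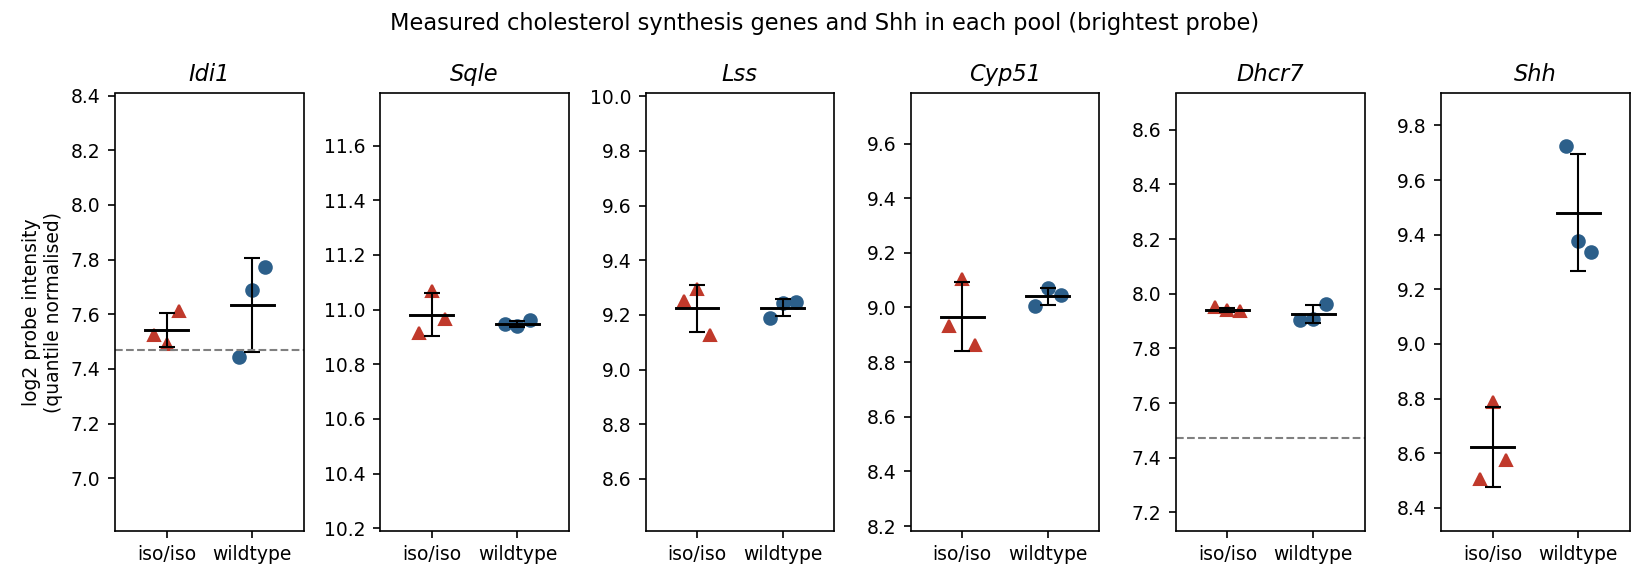
Log2 intensity after quantile normalisation (vertical axes, all of equal span) of Idi1, Sqle, Lss, Cyp51, Dhcr7 and Shh, with triangles for Zic2 iso/iso pools, circles for wildtype pools, bars for means, error bars for the SD of 3 pools and a dashed line at the background level of 7.47. The pools of the 5 cholesterol genes overlap, with differences of −0.09 to 0.03, and those of Shh do not, with a difference of −0.86.

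Counted together, 0 of the 5 genes and 0 of their 9 probes were called (limma), and 0 of the 9 probes had an unadjusted p under 0.05. Over the array 20 probes (0.0442%) were called, 18 of them lower (0.0398%) and 2 higher (0.00442%) in Zic2 iso/iso embryos, so that a count of 0 is also what the background share gives for so few probes. An unadjusted p under 0.05 was seen in 6.02% of all probes. The genotypes overlapped in all 9 probes of the cholesterol genes, while 10.6% of all probes did not overlap. Taken by gene, with the brightest probe for each of 19057 names, 0.0945% were called, 7.65% had an unadjusted p under 0.05 and 10.9% did not overlap.

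The direction was mixed. Of the brightest probes 2 were higher (Sqle and Dhcr7) and 3 lower (Idi1, Cyp51 and Lss) in Zic2 iso/iso pools, and over all 9 probes 2 were higher and 7 lower, none past a threshold. The median difference of the 5 genes was −0.0017, against −0.0069 for the 10438 named genes above the background level, with the 5th and 95th percentiles at −0.19 and 0.17. All 5 genes lay between these.

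The precision of these arrays bounds how large an undetected change could be. The 95% intervals of the 5 genes, each in its brightest probe, together reached from −0.28 to 0.18 on the log2 scale. In folds of measured intensity this was 0.826 to 1.13, and each interval lay within 0.5 of zero. The same held for 97.6% of the 10438 genes above the background level, so it does not set these genes apart. With normexp background correction the intervals widened to −0.42 to 0.14 for Idi1, −0.20 to 0.27 for Sqle, −0.24 to 0.23 for Lss, −0.33 to 0.16 for Cyp51 and −0.21 to 0.26 for Dhcr7. The weakest called probe on the array had an unadjusted p of 2.06e-05, and at that p the 5 genes would have needed a difference of 0.41 to 0.56 to be called. A smaller change than that could have been present without a call.

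**Figure D2:**
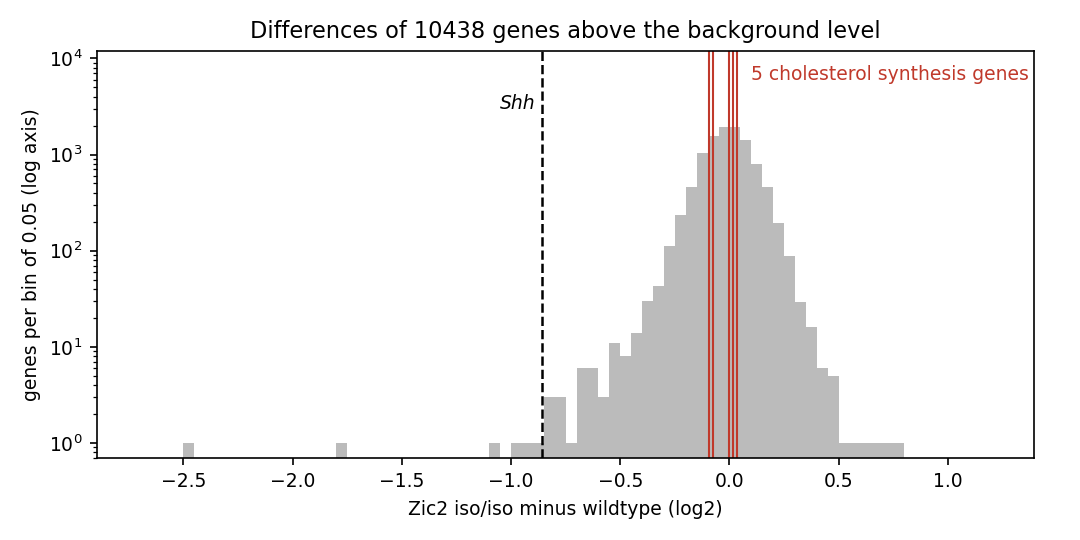
Number of genes (vertical axis, log scale) by the difference between Zic2 iso/iso and wildtype embryos (horizontal axis, log2), for the 10438 named genes whose brightest probe is above the background level. Solid lines mark Idi1, Sqle, Lss, Cyp51 and Dhcr7, which lie in the centre between −0.09 and 0.03, and the dashed line marks Shh at −0.86.

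The remaining enzymes were read from lists written from general knowledge. By gene 0.0945% of all names were called, so 0 calls in lists this short, here and below, is also what that share gives. Of 8 other genes of the mevalonate and isoprenoid steps, 6 had a probe and 4 were above the background level. None of the 6 was called, and their median difference was −0.0077. Pmvk, which encodes phosphomevalonate kinase, differed most. It was at 9.04, 8.61 and 8.67 in Zic2 iso/iso pools and 8.503, 8.72 and 8.81 in wildtype pools, a difference of 0.10 (standard error 0.11, adjusted p = 0.96) that turned to −0.04 without Zic2 iso/iso pool 1. Fdps, the farnesyl diphosphate synthase gene, was at −0.0069 (standard error 0.08).

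Of 8 other genes of the later sterol steps, 7 had a probe, all above the background level. None was called, and the median difference was 0.0084. Lbr, which encodes a sterol reductase that is also the lamin B receptor of the nuclear envelope, was at 12.65, 12.32 and 12.42 in Zic2 iso/iso pools and 12.26, 12.11 and 12.39 in wildtype pools. Its difference of 0.21 (standard error 0.09) had an unadjusted p of 0.046 and an adjusted p of 0.82, and mutant pool 2 lay within the wildtype range. Without Zic2 iso/iso pool 1 the difference was 0.11. The dimmer Lbr probe (ILMN_2509988) gave 0.19 (unadjusted p = 0.040, adjusted p = 0.82). Nsdhl, which encodes a dehydrogenase that takes part in removing methyl groups, has 4 probes that differed in sign. The brightest was at −0.10 and the next at 0.09, and the dimmest (ILMN_2958207) was at 7.72, 7.52 and 7.64 in Zic2 iso/iso pools and 7.75, 7.72 and 7.74 in wildtype pools. This dimmest probe did not overlap between the genotypes, with a difference of −0.11 (adjusted p = 0.92). Over both lists 13 of 16 genes were measured, 6 higher and 7 lower, with a median of −0.0069.

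**Figure D3:**
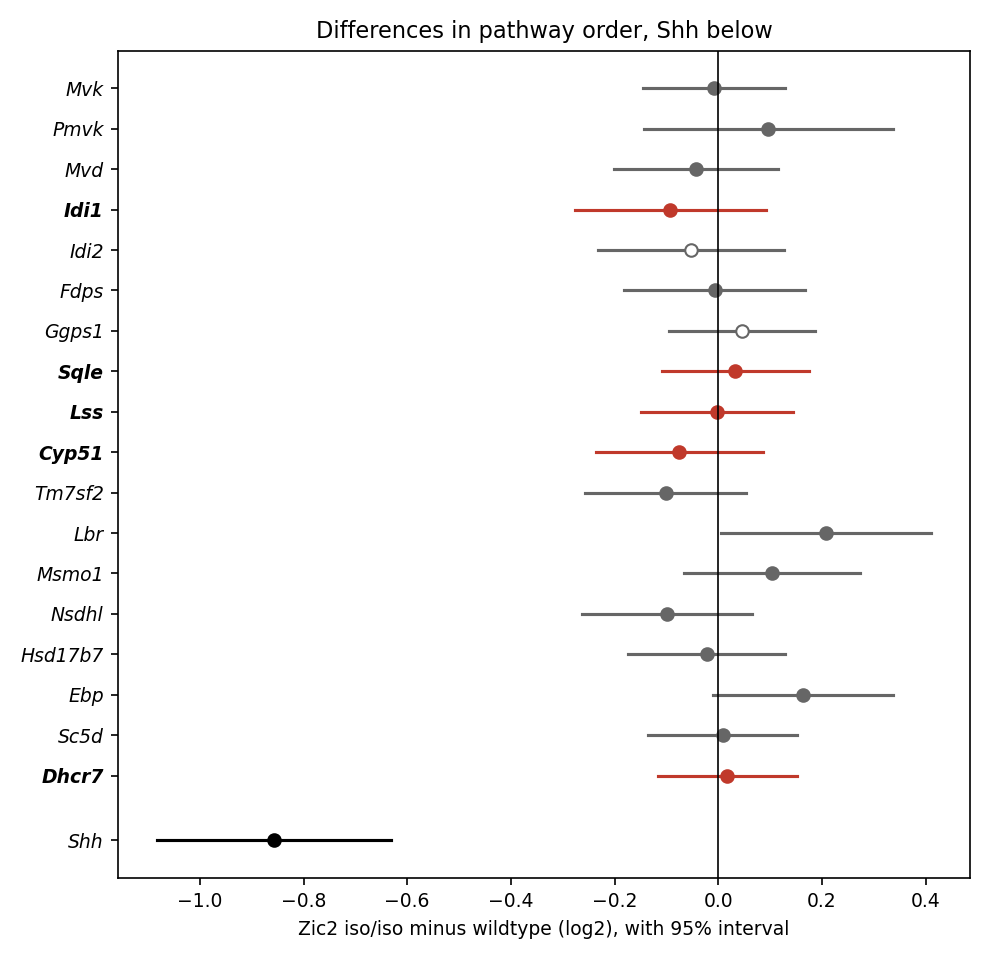
Difference between Zic2 iso/iso and wildtype embryos (horizontal axis, log2) with its 95% interval from limma for the measured genes in the order of the pathway, members in bold and in colour, open circles for genes below the background level, and Shh at the bottom. The intervals of the 5 members span zero, Lbr at 0.21 is the farthest pathway gene from zero, and Shh lies at −0.86.

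Sterol supply is sensed by SCAP and the INSIG proteins, which hold SREBP2 in the endoplasmic reticulum, and 2 proteases encoded by Mbtps1 and Mbtps2 free it. All 7 genes of this list were measured and above the background level, none was called, and their median difference was 0.05. Srebf2, the gene of SREBP2, was at 8.59, 8.94 and 8.91 in Zic2 iso/iso pools and 8.86, 9.01 and 8.71 in wildtype pools, a difference of −0.05 (standard error 0.10, adjusted p = 0.98). Insig1, itself a target of SREBP2, was at 7.93, 7.95 and 7.97 in Zic2 iso/iso pools and 8.02, 7.95 and 7.73 in wildtype pools, a difference of 0.05 (standard error 0.08, adjusted p = 0.98), and its 4 probes ran from −0.06 to 0.19. Neither gene separated the genotypes.

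Mbtps1, the gene of the protease that cuts SREBP2 first, was the only gene of the list in which a probe above the background level did not overlap. Its brightest probe, of 5, was at 9.13, 9.50 and 9.40 in Zic2 iso/iso pools and 9.38, 9.14 and 9.23 in wildtype pools, a difference of 0.09 (standard error 0.10, adjusted p = 0.96) with overlapping pools, and of 0.02 to 0.20 when 1 pool was left out. The probe ILMN_1239494 was at 9.16, 9.21 and 9.30 in Zic2 iso/iso pools and 9.03, 8.95 and 8.84 in wildtype pools, a difference of 0.28 (standard error 0.07, unadjusted p = 0.0018, adjusted p = 0.43). ILMN_2748537 was at 8.96, 8.97 and 9.04 in Zic2 iso/iso pools and 8.90, 8.70 and 8.74 in wildtype pools, a difference of 0.21 (adjusted p = 0.72). In these 2 probes the lowest mutant pool was above the highest wildtype pool. The remaining 2 probes were at −0.07 and −0.05, so the 5 probes did not give 1 direction. Of the 14 probes of this list above the background level 2 did not overlap, and 10.6% of all probes on the array, bright or dim, did not. Among named genes above the background level 12.0% did not overlap in their brightest probe. That share is an unlike count, since these 2 Mbtps1 probes were not the brightest of their gene.

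Other targets of SREBP2 or of the sterol-sensing LXR receptors were sparsely measured. Of 8 genes 5 had a probe and 2 were above the background level. Stard4, which encodes a carrier of cholesterol between membranes, differed most, with 10.10, 9.90 and 10.14 in Zic2 iso/iso pools and 9.84, 10.03 and 9.96 in wildtype pools. The difference of 0.10 (standard error 0.08, adjusted p = 0.94) came with overlapping pools and ran from 0.05 without wildtype pool 1 to 0.17 without Zic2 iso/iso pool 2. Of 7 genes of sterol transport and storage 6 were measured and none was called. Npc2, which encodes a carrier that moves cholesterol out of lysosomes, was at 9.56, 9.14 and 9.09 in Zic2 iso/iso pools and 9.29, 9.37 and 9.71 in wildtype pools, a difference of −0.20 (standard error 0.13, adjusted p = 0.92) that was −0.34 without Zic2 iso/iso pool 1 and −0.07 without wildtype pool 3.

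Branches next to the pathway also gave 0 calls, beside 0.0945% of all named genes. All 10 genes of fatty acid synthesis were measured, 8 of them above the background level, with 0 called and a median of 0.01. Fads2, a fatty acid desaturase gene, was farthest from zero at 0.13 (standard error 0.08, adjusted p = 0.92), with 0.06 to 0.22 when 1 pool was left out, but its dimmer probe was at −0.15. Of 11 genes that use isoprenoids for prenylation, dolichol, haem A or ubiquinone 10 were measured, all above the background level, with 0 called and a median of −0.0086. Icmt, which encodes a methyltransferase of prenylated proteins, was at −0.13 (standard error 0.08, adjusted p = 0.92) in its brightest probe, with −0.19 to −0.06 when 1 pool was left out, and at 0.10 and 0.09 in its dimmer probes.

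The Hedgehog list, to which sterols are tied, held 15 genes. Of these 14 were measured and 10 were above the background level, and 1 was called. Shh (ILMN_2610013) was at 8.51, 8.79 and 8.57 in Zic2 iso/iso pools and 9.73, 9.38 and 9.34 in wildtype pools, so that the genotypes were well apart. Shh fell by 0.86 in log2 terms, with a standard error of 0.10, an adjusted p of 0.0075 from limma and a 95% interval of −1.08 to −0.63 that did not meet the interval of any measured cholesterol gene. When the arrays were not normalised to each other its adjusted p was 0.19, and when its probes were averaged 0.068, which ended the call. The dimmer Shh probe (ILMN_2802979), on average just below the background level, was at −0.188 (limma, adjusted p = 0.744), also without overlap. Ptch1, a receptor and target of the signal, was at 9.89, 9.91 and 10.14 in Zic2 iso/iso pools and 10.05, 10.03 and 9.60 in wildtype pools, a difference of 0.09 (standard error 0.11, adjusted p = 0.97) that turned to −0.06 without wildtype pool 3. Smo, whose product binds cholesterol, was at 0.11 (standard error 0.09, adjusted p = 0.94) in its brightest probe, with overlapping pools. The next probes of Smo were at 0.15 and 0.13 (adjusted p = 0.80 and 0.86), and in these the genotypes did not overlap. The dimmest Smo probe (ILMN_1236330), below the background level, was at −0.09 (limma, adjusted p = 0.935), also without overlap, so the Smo probes differed in sign. A dim probe of Hhat, which encodes the enzyme that adds palmitate to the ligand, was at −0.13 (adjusted p = 0.89) without overlap, and the brighter Hhat probes overlapped. Of the 29 probes of the Hedgehog list, those of Shh included, 6 did not overlap, beside 10.6% of all probes.

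The makeup of the pools was read from marker lists, since whole embryos hold many tissues and the yolk sac exports cholesterol as lipoprotein. All 11 markers of yolk sac visceral endoderm were above the background level, and their summed intensity (brightest probes, normalised, on the linear scale) was 32495 to 47991 in Zic2 iso/iso pools and 29802 to 39942 in wildtype pools. Of these Apob, which encodes the protein of lipoprotein particles, was at 11.32, 10.91 and 11.26 in Zic2 iso/iso pools and 10.64, 10.66 and 10.69 in wildtype pools, without overlap (difference 0.50, adjusted p = 0.15). Apob was the farthest from zero of the 11 markers and the only 1 without overlap in its brightest probe. Of the 11, 9 were higher and 2 lower in Zic2 iso/iso pools, with Trf the lowest at −0.16. The summed markers of heart (4 of 5 above the background level) were at 3423 to 7054 in Zic2 iso/iso pools and 7081 to 8629 in wildtype pools, and those of the node and notochord, which include Shh (5 of 5), at 1295 to 1378 in Zic2 iso/iso pools and 1721 to 1898 in wildtype pools. The somite sums (4 of 6) were 2878 to 3322 in Zic2 iso/iso pools and 3359 to 4044 in wildtype pools. In this list Tcf15 (−0.52, limma, adjusted p = 0.27) was the only gene without overlap in its brightest probe. Meox1 was at −0.28 with overlapping pools, and of the 6 genes 4 were lower and 2 higher. In the node list the called genes Shh and Chrd, which encodes a BMP antagonist (−0.52), carried the gap. Without these 2, a choice made after seeing the data, the sums of Noto, Foxa2 and Foxj1 overlapped. They were 612.9 to 644.2 in Zic2 iso/iso pools and 629.7 to 696.3 in wildtype pools. The genes left lay near the background level of 7.47, with means of 7.48 for Noto, 7.92 for Foxa2 and 7.80 for Foxj1. Because the called genes were taken out and the others were dim, this overlap cannot show whether the node as a whole changed. The heart sums were only just apart, and no single heart gene separated the genotypes or was called. Of the 5 heart genes 0 were higher and 5 lower in Zic2 iso/iso pools, with a median difference of −0.43. An unadjusted p under 0.05 (limma) was seen in 3 of them, beside 7.65% of all named genes. Sums of primitive blood (5 of 6), 1378 to 9858 in Zic2 iso/iso pools and 4436 to 6370 in wildtype pools, did overlap. The mutant pools differed widely among themselves. Hbb-bh1 was at 12.87, 10.75 and 9.04 in Zic2 iso/iso pools and 11.55, 11.74 and 12.17 in wildtype pools. The source of this spread was not tested. Of the 6 blood genes 0 were higher and 6 lower in Zic2 iso/iso pools. The sums of neural plate (3 of 6, with Sox1, Pax6 and Six3 below the background level) and of trophoblast and decidua (4 of 5) also overlapped. The last sum rests largely on its brightest gene, Cdx2, and is not read as a measure of those tissues. Cdx2 was higher in Zic2 iso/iso pools without overlap (difference 0.32, limma, adjusted p = 0.495). Of the 5 genes of that list 2 were higher and 3 lower. The part of these differences in the values of the cholesterol genes was not tested.

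Under 17 other settings none of the 5 genes was called. The difference ran from −0.19 to −0.02 for Idi1, −0.05 to 0.12 for Sqle, −0.04 to 0.10 for Lss, −0.15 to 0.02 for Cyp51 and 0.01 to 0.10 for Dhcr7. Of the 17, 6 settings leave the difference of Idi1, Dhcr7 and Cyp51 as it was, since they change only the test or average a single probe, and 5 leave that of Sqle and Lss. Among the settings that moved the value, Idi1 and Dhcr7 turned in 0 of 11, Cyp51 in 1 of 11, Sqle in 2 of 12 and Lss in 7 of 12. The adjusted p nearest to the threshold was 0.62, for Idi1 without wildtype pool 1.

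**Figure D4:**
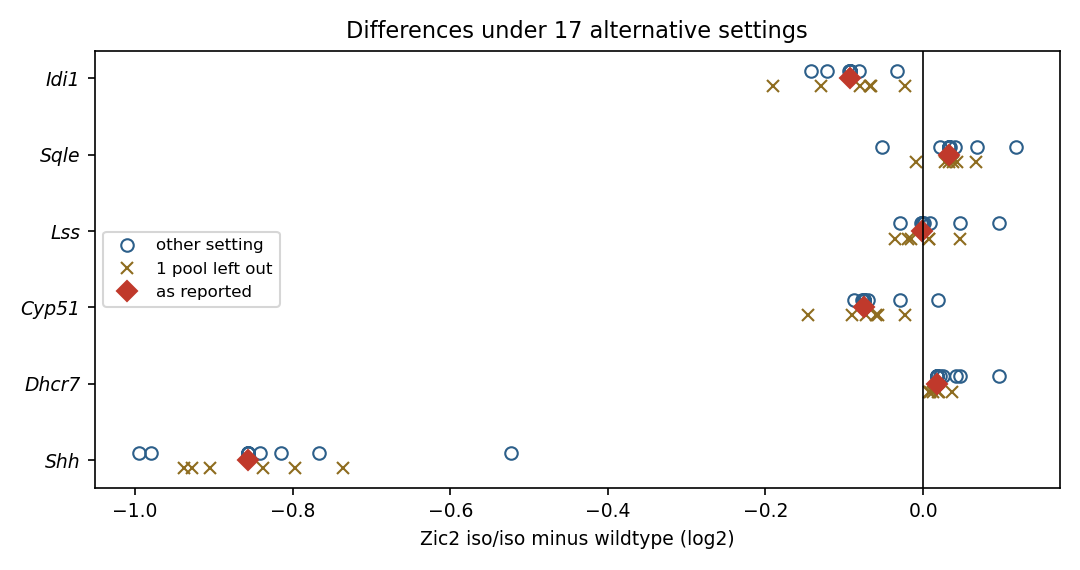
Difference between Zic2 iso/iso and wildtype embryos (horizontal axis, log2) as reported (diamonds), under other processing settings (open circles) and with 1 pool left out (crosses). The cholesterol genes stay between −0.19 and 0.12 and Shh between −0.995 and −0.52.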

How the data were processed

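Illumina Mouse WG6 v2 arrays of 3 Zic2 iso/iso and 3 wildtype pools were used. What the authors deposited are linear intensities of probes, neither background-subtracted nor normalised, and the variance stabilisation of the study's methods is not in them. After a floor of 1, log2 values were taken, quantile normalised and fitted per probe with limma 3.58.1 in R 4.3.3 (lmFit and eBayes, no covariates), with Benjamini-Hochberg adjustment over all 45281 probes and a threshold of 0.05, after the study's own test. Gene names came from the platform annotation: 34885 probes carried 1 symbol, 18 several and 10378 none. The members and gene lists were chosen with earlier results of these data known. Genes were named by a rule: every probe of the members, list genes that were called or whose probes above the background level did not overlap, the gene of each list farthest from zero, and a set fixed by name, of which Srebf2, Insig1, Shh, Ptch1 and Zic2 are given and the others are not reported here. Some genes and probes were added after their values were seen. These were Fdps, Apob, Trf, Cdx2, Tcf15, Meox1, Chrd, Noto, Foxa2 and Foxj1. They also include Lbr's second probe, Smo's brightest and dimmest probes and the dimmer probes of Shh, Fads2 and Icmt. The steps were tested on simulated data. The alternatives covered normalization, background, the dim-probe filter, the variance prior, array weights, the replicate block, probe averaging, the threshold and leaving out each pool. Pools of equal replicate number did not deviate together, which cannot show whether pools shared litters or batches. The number of arrays limits the precision.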

Additional observations from a re-analysis of the deposited data

How the results depend on the processing

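None of the 5 cholesterol genes was called under any of the 17 settings. Without normalization between arrays, which raised the median of all probes by 0.05, 4 probes were called over the array (1 higher, 3 lower). The median of the 5 genes was then 0.0959, the value of Lss, with Cyp51 at 0.019 and Srebf2 at 0.051. With median centring 11 were called (1 higher, 10 lower), Lss and the median were at 0.0471 and Srebf2 at 0.0022. An intensity trend gave 31 calls (6 higher), an adjusted p of 0.10 gave 34 (5 higher, 29 lower), normexp and the variance stabilising transformation 5 higher each, and a robust prior 1 higher. Lss turned to 0.0087 with that transformation and to 0.0006 with array weights. With the mean of a gene's probes Sqle and the median of the 5 genes were at −0.0522, Fads2 at −0.0068 and Icmt at 0.0212. The Hedgehog list had 0 calls (limma) in that setting and without normalization, with Shh at −0.52 and −0.77 in them. Leaving out 1 pool gave 14 to 29 called probes, with 6 higher without wildtype pool 1 and 1 higher without wildtype pool 2 or 3, 13 to 23 lower, and a median of −0.0352 to 0.0208 for the 5 genes. The difference then ran from −0.0352 to 0.0468 for Lss, −0.009 to 0.0673 for Sqle, −0.0383 to 0.1792 for Pmvk, −0.1228 to 0.066 for Srebf2, −0.064 to 0.1643 for Ptch1 and −0.0379 to 0.109 for Insig1. Pools of equal number did not deviate together (correlations −0.126, −0.02 and −0.122 over 18449 probes), and with the replicate block 17 probes were called (3 higher, 14 lower), 0 of them probes of the cholesterol genes (limma), with the median at −0.0017. The signal limits Idi1 most, since it lies nearest to the background level.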
